A study of Mus musculus with 6 samples.

Results

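The H2 genes are the mouse major histocompatibility complex (MHC). They were taken here as every probe whose platform gene symbol starts with H2-, which gave 48 probes of 32 genes, out of 16281 probes and 10698 named genes on the arrays. RAW 264.7, a macrophage-like line grown from a tumour of a BALB/c mouse, was treated for 48 h with LPS (lipopolysaccharide) at 100 ng/ml together with LBP (its binding protein) at 100 pM, and untreated cells of the same line were cultured for 48 h. LPS comes from the outer wall of Gram-negative bacteria, and LBP, a protein of serum, hands it to its receptor on macrophages. Treated and untreated total RNA were hybridised together on 6 two-colour arrays, 3 with the treated RNA in the red dye Cy5 and 3 with it in the green dye Cy3, and each orientation had a set 1, a set 2 and a set 3. The labels do not say whether the sets are separate cultures, so the spread behind each p-value below may be technical. In the main test it is the spread between 3 set means, which the test draws in part from all probes. Each set mean joins the 2 arrays with the same set number, and the labels do not say that these belong together.

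MHC class I molecules carry peptides from inside the cell to its surface, where CD8 T cells and natural killer (NK) cells read them. Each consists of a heavy chain, which the H2 class I genes encode, and the light chain beta-2-microglobulin. The classical heavy chains are H2-K and H2-D, and the Q, T and M regions hold nonclassical heavy chains, several of which bind other ligands or other receptors. MHC class II molecules display peptides from engulfed material to CD4 T cells and are made mainly by antigen-presenting cells such as macrophages, dendritic cells and B cells. Interferons, which macrophages release after LPS, are known inducers of class I genes, and class II genes depend on the transactivator CIITA.

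The genes fell into 5 groups of the MHC and 1 remaining gene. The K and D region had 4 genes with 5 probes, the Q region 7 genes with 13 probes, the T region 7 genes with 14 probes, and the M region 5 genes with 7 probes. Class II had 8 genes with 8 probes, and H2-Ke6, which keeps an H2 symbol but encodes no MHC chain, had 1. A RefSeq table of the GRCm38.p6 assembly held 31 of the 32 genes, all of them on chromosome 17, and listed 7 as pseudogenes (H2-K2, H2-D4, H2-Q5, H2-T10, H2-Bl, H2-Ea and H2-Pa). That assembly is of the C57BL/6J strain, while the cells come from BALB/c, and the set of Q and T genes differs between mouse strains. The probe sequences were not used here, and heavy chain genes are much alike, so a probe named for one gene may also read its relatives.

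The upstream sequences of 6 members are shown to set genes with a rise of at least 2-fold on a probe (H2-K1, H2-Q7, H2-T22 and H2-T23) beside a T gene and a class II gene with smaller ratios (H2-T3 and H2-Aa). H2-Aa was listed at 0 on 1 array and was not tested. RefSeq promoters of GRCm38.p6, from 250 bases before to 50 bases after the start of each gene, matched 20 of the 32 genes. Capitals mark the kappa B letters GGGGATTCC, the interferon-response-like letters GTTTCACTT, and the interferon-response core GAAANNGAA, each searched on both strands. These motifs were chosen after the sequences had been read. Sequences run 5′ to 3′ on the strand of the gene.
H2-K1, chr17:34000298-34000597, minus strand: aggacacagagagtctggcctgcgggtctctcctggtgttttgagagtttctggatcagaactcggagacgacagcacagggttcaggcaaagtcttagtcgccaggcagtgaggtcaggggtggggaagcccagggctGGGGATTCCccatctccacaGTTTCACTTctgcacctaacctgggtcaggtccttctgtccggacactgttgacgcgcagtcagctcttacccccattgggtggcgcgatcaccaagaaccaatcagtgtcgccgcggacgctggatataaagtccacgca
H2-Q7, chr17:35438905-35439204, plus strand: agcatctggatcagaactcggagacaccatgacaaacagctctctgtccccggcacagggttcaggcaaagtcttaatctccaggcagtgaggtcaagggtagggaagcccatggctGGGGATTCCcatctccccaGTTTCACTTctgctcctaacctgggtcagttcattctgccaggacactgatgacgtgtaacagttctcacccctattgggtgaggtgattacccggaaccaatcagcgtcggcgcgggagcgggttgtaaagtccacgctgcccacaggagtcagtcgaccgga
H2-T22, chr17:36042693-36042992, minus strand: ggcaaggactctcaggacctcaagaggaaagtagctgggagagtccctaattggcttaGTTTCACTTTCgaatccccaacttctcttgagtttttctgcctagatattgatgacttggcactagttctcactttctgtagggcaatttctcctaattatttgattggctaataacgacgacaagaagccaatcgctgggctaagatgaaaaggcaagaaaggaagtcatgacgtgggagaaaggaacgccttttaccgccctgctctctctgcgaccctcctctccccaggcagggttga
H2-T23, chr17:36032652-36032951, minus strand: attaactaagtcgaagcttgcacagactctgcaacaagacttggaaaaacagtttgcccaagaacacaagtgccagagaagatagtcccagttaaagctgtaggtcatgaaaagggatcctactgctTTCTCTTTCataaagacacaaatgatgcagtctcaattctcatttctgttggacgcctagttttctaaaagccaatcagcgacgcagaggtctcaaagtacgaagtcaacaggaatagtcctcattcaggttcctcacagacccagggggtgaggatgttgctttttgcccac
H2-T3, chr17:36190102-36190401, minus strand: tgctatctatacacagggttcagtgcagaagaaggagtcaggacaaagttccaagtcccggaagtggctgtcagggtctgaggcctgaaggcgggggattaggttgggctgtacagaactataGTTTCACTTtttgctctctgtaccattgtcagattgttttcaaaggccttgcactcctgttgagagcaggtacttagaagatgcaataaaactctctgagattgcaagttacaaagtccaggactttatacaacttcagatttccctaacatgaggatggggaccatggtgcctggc
H2-Aa, chr17:34287774-34288073, minus strand: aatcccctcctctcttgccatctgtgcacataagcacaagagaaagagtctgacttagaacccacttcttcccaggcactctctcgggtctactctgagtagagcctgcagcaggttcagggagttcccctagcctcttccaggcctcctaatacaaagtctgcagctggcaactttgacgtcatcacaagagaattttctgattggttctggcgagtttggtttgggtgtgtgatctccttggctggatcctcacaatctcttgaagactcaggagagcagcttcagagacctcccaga

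GGGGATTCC stood in 3 of the 20 promoters, those of H2-K1, H2-D1 and H2-Q7, and in 0.25% of all 32851 RefSeq promoters. GTTTCACTT stood in 8 of the 20 (H2-K1, H2-D1, H2-Q4, H2-Q7, H2-Q10, H2-T22, H2-T3 and H2-M3) and in 0.399% of all promoters. In H2-K1 the kappa B letters began at base -111 and GTTTCACTT at base -91, counted from the start of the gene, and in H2-Q7 they began at -133 and -114. GAAANNGAA stood in 2 of the 20, on the minus strand at -123 in H2-T23 and at -190 in H2-T22, and in 8.56% of all promoters. In H2-T22 it overlapped GTTTCACTT, which began at -192, so the capitals there run together. None of the 3 motifs stood in the promoters of the 5 matched class II genes, which says little given the low shares over all promoters. H2-Q2 and H2-M2, which rose, also had none of the 3, and H2-M3, which did not rise, had GTTTCACTT. Whether the motifs go with the rise was not tested. The Y box core ATTGG, which is not capitalised, stood in 4 of the 5 class II promoters, in 17 of all 20 and in 37.4% of all promoters. The promoters of K1, D1, Q4, Q7 and Q10 aligned with one another, with 88.3% identical bases between H2-K1 and H2-D1 and 85.8% between H2-K1 and H2-Q7. H2-Q2 and H2-M3 also aligned with H2-D1, at 71.6% and 66.1%. The most alike of the pairs that aligned at length was H2-M9 with H2-M1, at 92.5%, and neither of these genes rose. A match describes letters in this window of the C57BL/6J genome, and binding was not measured.

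Each value below is a log2 ratio, treated over untreated, with the sign turned on the 3 arrays that had the treated RNA in Cy3. The labels do not state the base of the deposited logarithm, which was taken as 2, and a natural logarithm would make every fold change larger. A ratio holds no level, so the abundance of a transcript is unknown, and more cells expressing a gene cannot be told apart from more RNA per cell. Between 7.97% and 17.8% of the values on an array were exactly 0, and these were treated as missing. The sign was checked on Il1b, Il6, Tnf and Nos2, textbook LPS-induced genes, whose 9 probes were above 0 on all 6 arrays, so their direction is in part an input. Each probe with a value on all 6 arrays was tested with limma on the 3 set means, and passing means an adjusted p under 0.05 over all 12724 such probes.

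Most class I genes of the K and D, Q and T regions rose after LPS and LBP, while most M and class II genes did not pass the test. Of the 48 H2 probes, 41 probes of 29 genes were tested, 26 probes of 17 genes rose, 2 fell and 13 did not pass. Over all probes tested 14.8% rose and 12.2% fell, against 63.4% of the tested H2 probes that rose. At least a 2-fold rise was seen for 19 of the 41, against 3.08% of all probes. The median log2 ratio was 0.85 over the 41 H2 probes, a 1.80-fold difference, and -0.01 over all probes tested. The ratio was above 0 on all 6 arrays for 25 of the 41, against 16.1% of all probes. Ranked by mean log2 ratio among the 12724 probes, the highest H2 probe stood at 147, and 21 of the 41 were within the top 5% (636 probes). When values of 0 were kept as measurements, limma called 21 of the 48 H2 probes higher and 0 lower, 5 being below 0 with an unadjusted p under 0.05, against 5.55% higher and 3.1% lower of all 16281 probes. A probe without a value of 0 has the same ratios and mean in that fit. For such a probe only the spread drawn from all probes and the adjustment over 16281 probes differ.

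**Figure D1:**
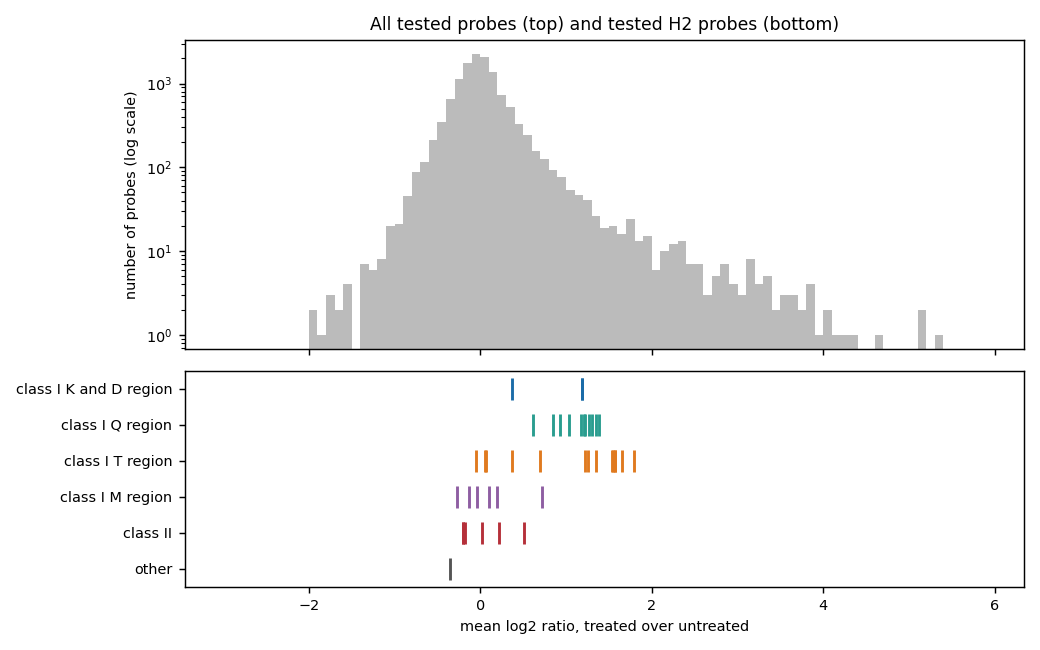
Distribution of the mean log2 ratio (treated over untreated, 3 sets) over all 12724 tested probes (top, number of probes on a log scale) and the 41 tested H2 probes as ticks by group (bottom). Q region ticks lie between 0.61 and 1.39 and T region ticks between -0.05 and 1.80, whereas the class II ticks lie between -0.21 and 0.51.

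In the K and D region 2 of 3 tested probes rose, by about the same amount. H2-K1, a classical heavy chain that presents peptides to CD8 T cells, read 1.23, 1.58 and 1.26 with the treated RNA in Cy5 and 1.03, 1.13 and 0.91 with it in Cy3 (sets 1, 2 and 3, probe 9671). All 6 arrays were on the treated side. The mean was 1.19 ± 0.14 (SD of set means, n = 3 sets), a 2.28-fold rise with an adjusted p of 4.55e-05 (limma). Probe 8219, named for the pseudogene H2-D4, read 1.33, 1.20 and 1.36 in Cy5 and 1.11, 0.98 and 1.16 in Cy3. Its mean of 1.19 ± 0.09 (n = 3 sets) was also 2.28-fold (limma adjusted p 3.10e-05). The pseudogene H2-K2 (probe 14435) spread from -0.11 to 0.99, with the set 2 arrays lowest in each orientation. Its mean of 0.37 ± 0.41 (n = 3 sets) did not pass (limma adjusted p 0.0915), and without set 2 it was 0.57 with an adjusted p of 0.0425.

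The other H2-K1 probe, 12937, was listed at 0 on 1 array and was therefore untested. It read 0.83 and 1.06 in Cy5 (sets 1 and 3) and 0.68, 1.06 and 1.38 in Cy3. All 5 values were on the treated side, and the mean of the 2 complete sets was 0.99 (limma adjusted p 0.000604 among probes with at least 2 complete sets). H2-D1, the other classical heavy chain, had 1 probe (14464), which read 1.70 on the set 2 array in Cy5 and was listed at 0 on the other 5, so its response is not known from these arrays.

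All 11 tested probes of the Q region rose, and they covered all 7 of its genes. Their median log2 ratio was 1.21 (2.31-fold), with a range from 0.61 to 1.39, and 8 of the 11 rose at least 2-fold. Every one was above 0 on all 6 arrays. H2-Q7 and H2-Q8 encode Qa-2, a class I molecule held in the membrane by a lipid anchor and also secreted. H2-Q7 (probe 427) read 1.23, 1.41 and 1.33 in Cy5 and 1.06, 1.11 and 1.11 in Cy3, with a mean of 1.21 ± 0.06 (n = 3 sets, limma adjusted p 2.35e-05). H2-Q8 read 1.49, 1.63 and 1.42 in Cy5 and 1.50, 1.17 and 1.12 in Cy3 on probe 1104, the highest Q probe, with a mean of 1.39 ± 0.11 (n = 3 sets, limma adjusted p 1.42e-05). Its other probe, 17579, lay between 1.09 and 1.30 on the 6 arrays.

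H2-Q4 (probe 14471) and H2-Q1 (probe 16633) read higher in the Cy5 orientation. H2-Q4 read 1.61, 1.76 and 1.59 in Cy5 and 1.00, 0.87 and 0.99 in Cy3. H2-Q1 read 1.45, 1.64 and 1.55 in Cy5 and 0.94, 0.97 and 1.08 in Cy3. For both genes every Cy5 array was above every Cy3 array, and all 6 were on the treated side. The means were 1.30 ± 0.01 for H2-Q4 and 1.27 ± 0.07 for H2-Q1 (SD, n = 3 sets), since the orientations average within a set. H2-Q10, which encodes a class I molecule secreted by the liver, read 1.21, 1.44 and 0.93 in Cy5 and 0.82, 1.00 and 0.77 in Cy3 (probe 3720), a 2.04-fold rise (limma adjusted p 0.000149).

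Different probes of one Q gene gave different sizes of response. For the pseudogene H2-Q5 the means were 1.35 (probe 13035), 0.93 (probe 14911) and 0.61 (probe 17904), and all 3 passed. A 4th H2-Q5 probe, 12208, read -0.25 and 0.32 on the Cy5 arrays of sets 2 and 3 and 1.48 and 1.47 on the Cy3 arrays of sets 1 and 2, and was listed at 0 on the other 2 arrays. For H2-Q2 the means were 1.17 (probe 18447) and 0.85 (probe 374). Probe 374 read 0.85, 0.30 and 0.50 in Cy5 and 1.07, 1.46 and 0.91 in Cy3, the opposite order of orientations to H2-Q4. H2-Q1 had an untested probe too, 9787, with values from -0.38 to 0.58 on 5 arrays and a mean of 0.04 over its 2 complete sets (limma adjusted p 0.892), far from the 1.27 of probe 16633.

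The T region held the highest response among the tested H2 probes. Of its 14 tested probes 11 rose, for 6 of its 7 genes, and 9 rose at least 2-fold, with a median log2 ratio of 1.31 (2.47-fold). H2-T23 encodes Qa-1, which shows leader peptides of other class I chains to CD94/NKG2 receptors on NK cells. Its probe 11796 read 1.89, 1.89 and 1.66 in Cy5 and 1.77, 1.79 and 1.78 in Cy3. The orientations overlapped, and the mean of 1.80 ± 0.07 (n = 3 sets) was a 3.47-fold rise, the highest among the H2 probes tested (limma adjusted p 2.68e-06). The second H2-T23 probe, 12940, read 0.66, 0.29 and 0.98 in Cy5 and 0.42, 1.18 and 0.65 in Cy3. It rose too, by a mean of 0.70 ± 0.14 (n = 3 sets, limma adjusted p 0.000906), but stood 1.10 below probe 11796 on average, the widest gap between 2 tested probes of one H2 gene.

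H2-T22 and H2-T10 encode class I-like molecules that bind no peptide and are ligands of gamma delta T cell receptors. All 4 probes of H2-T22 rose. Probe 8273 read 1.78, 2.02 and 1.57 in Cy5 and 1.73, 1.47 and 1.34 in Cy3, with a mean of 1.65 ± 0.17 (n = 3 sets), a 3.14-fold rise (limma adjusted p 7.94e-06). Probe 600 read 1.75, 2.03 and 1.77 in Cy5 and 1.33, 1.46 and 1.10 in Cy3, with a mean of 1.57. Probe 7477 matched it to within 0.06 on every array and had the same mean, 1.57, and probe 18002 had a mean of 1.55. Set 2 was the highest Cy5 array for all 4 probes.

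H2-T9, a close relative of H2-T22, read 1.74, 1.97 and 1.54 in Cy5 and 1.34, 1.38 and 1.22 in Cy3 (probe 3659), with a mean of 1.53 ± 0.15 (n = 3 sets). Its values differed from those of H2-T22 probe 18002 by 0.06 on average over the 6 arrays, and a signal shared between these genes cannot be told apart from a common response. H2-T10, listed as a pseudogene in C57BL/6J, read 1.51, 1.43 and 1.40 in Cy5 and 1.16, 1.31 and 1.30 in Cy3 (probe 18031), a 2.55-fold rise (limma adjusted p 1.09e-05). H2-T24 rose on both probes, with means of 1.26 (probe 11671) and 1.22 (probe 8040). Its set 3 arrays were the highest on both probes, at 1.72 in Cy5 and 1.47 in Cy3 for probe 11671. With values of 0 kept in the data, the H2-T24 probes just missed the threshold (limma adjusted p 0.0505 and 0.0533). Neither probe had a value of 0, so their own ratios were the same in that fit.

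The lowest T region means were those of H2-T3 and H2-Bl. H2-T3 encodes the thymus leukaemia antigen, a class I molecule best known from the intestinal epithelium. Its probe 3583 read 0.08, 0.37 and 0.65 in Cy5 and 0.22, 1.06 and -0.13 in Cy3, and its mean of 0.37 ± 0.30 (n = 3 sets) passed only narrowly (limma adjusted p 0.048). The call was lost without set 2 (mean 0.21, limma adjusted p 0.225), with values of 0 kept (0.238), with 6 arrays and no replicate block (0.0788) or with the set as a replicate block (0.180), with equal spread of arrays (0.0541), and on the Cy5 arrays (0.112) or the Cy3 arrays (0.178) alone. The other H2-T3 probes, 211 and 11466, had means of 0.06 and -0.05 and did not pass (limma adjusted p 0.721 and 0.794). The pseudogene H2-Bl (probe 3577) spread from -0.43 to 0.53, with a mean of 0.07 (limma adjusted p 0.704).

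**Figure D2:**
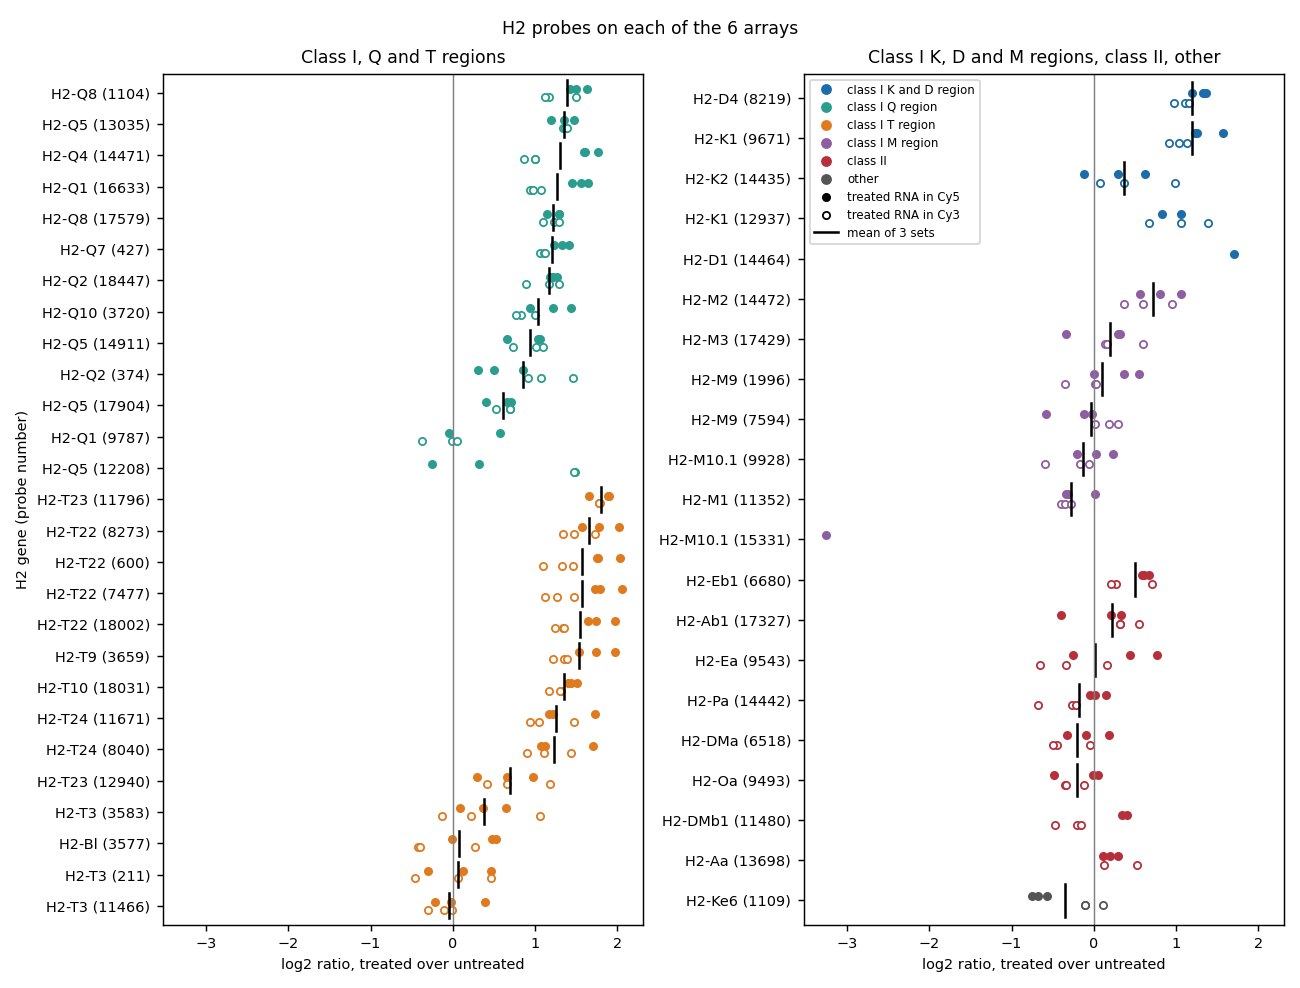
Log2 ratio of treated over untreated on each array for every H2 probe, one row per probe with its number, filled circles for treated RNA in Cy5, open circles for treated RNA in Cy3, and a bar for the mean of 3 sets. Values of 0 are left out, so H2-D1 shows a single point at 1.70, while the points of H2-T23 (11796) all lie between 1.66 and 1.89.

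Of the 6 tested M region probes 1 rose, 1 fell and 4 did not pass, with a median log2 ratio of 0.03. With 1 of 6 in each direction, these shares were near the 14.8% higher and 12.2% lower of all probes. H2-M2, a nonclassical class I gene, read 0.80, 0.57 and 1.07 in Cy5 and 0.60, 0.37 and 0.95 in Cy3 (probe 14472). All 6 arrays were on the treated side, and the mean of 0.72 ± 0.27 (n = 3 sets) was a 1.65-fold rise (limma adjusted p 0.00215, or 0.0846 with values of 0 kept). H2-M3, which presents peptides with a formylated start such as those of bacteria, spread from -0.34 to 0.59 (probe 17429), with a mean of 0.19 (limma adjusted p 0.252).

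H2-M1, H2-M9 and H2-M10.1 belong to class I families known from sensory neurons of the vomeronasal organ. H2-M1 (probe 11352) read 0.01, -0.34 and -0.31 in Cy5 and -0.40, -0.35 and -0.27 in Cy3, with 5 of 6 arrays below 0. Its mean of -0.28 ± 0.08 (n = 3 sets) fell narrowly past the threshold (limma adjusted p 0.0458). It lost the call when any single set was left out (0.0810 without set 1, 0.162 without set 2 and 0.149 without set 3) and with values of 0 kept (0.0656). The H2-M9 probes had means of 0.10 (1996) and -0.04 (7594), and H2-M10.1 had a mean of -0.13 (9928), none of which passed. Another H2-M10.1 probe, 15331, read -3.26 on the set 3 array in Cy5 and was listed at 0 on the other 5.

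Of the class II genes, H2-Eb1 was the sole one of 6 tested to rise (16.7%), near the 14.8% of all probes. None fell past the adjusted threshold, against 12.2% of all probes. At an unadjusted p under 0.05 (limma) 2 of the 6 were above 0, H2-Eb1 among them, and 2 were below 0. The median log2 ratio was -0.08, with a range from -0.21 to 0.51. H2-Eb1, the beta chain of the I-E molecule, read 0.61, 0.58 and 0.67 in Cy5 and 0.27, 0.70 and 0.20 in Cy3 (probe 6680). All 6 arrays were on the treated side, with a mean of 0.51 ± 0.12 (n = 3 sets), a 1.42-fold rise (limma adjusted p 0.00404, or 0.0518 with values of 0 kept). H2-Ea, whose gene encodes the partner alpha chain and is listed as a pseudogene in C57BL/6J, spread from -0.65 to 0.76 (probe 9543), with a mean of 0.02 (limma adjusted p 0.945).

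The I-A chains were not called. H2-Ab1, the I-A beta chain, read 0.33, -0.40 and 0.20 in Cy5 and 0.32, 0.54 and 0.32 in Cy3 (probe 17327). A single array, set 2 in Cy5, was below 0, and the mean was 0.22 ± 0.13 (n = 3 sets, limma adjusted p 0.114). It passed on the 3 Cy3 arrays alone, at 0.39 (limma adjusted p 0.0312). H2-Aa, the I-A alpha chain (probe 13698), was listed at 0 on 1 array and read 0.30, 0.20 and 0.11 in Cy5 and 0.13 and 0.53 in Cy3. All 5 values were above 0, but the mean of 0.27 over its 2 complete sets did not pass (limma adjusted p 0.133).

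The H2-encoded chains of DM and DO were not called. H2-DMa encodes a chain of DM, which exchanges peptides on class II, and read -0.10, -0.32 and 0.18 in Cy5 and -0.45, -0.05 and -0.49 in Cy3 (probe 6518). H2-Oa encodes a chain of DO, an inhibitor of DM, and read -0.01, -0.48 and 0.05 in Cy5 and -0.34, -0.12 and -0.33 in Cy3 (probe 9493). For both genes 5 of 6 arrays were below 0, and the means were -0.20 and -0.21 (limma adjusted p 0.114 and 0.116). H2-DMb1, the other DM chain (probe 11480), was listed at 0 on 1 array and not tested, and read 0.40 and 0.35 in Cy5 and -0.20, -0.47 and -0.16 in Cy3, so its sign followed the dye. The pseudogene H2-Pa (probe 14442) had a mean of -0.18 (limma adjusted p 0.215).

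H2-Ke6 encodes a dehydrogenase of steroid and fatty acid metabolism and lies among the MHC genes. It read -0.57, -0.68 and -0.75 in Cy5 and 0.12, -0.11 and -0.11 in Cy3 (probe 1109). Every Cy5 array was lower than every Cy3 array. The mean of -0.35 ± 0.11 (n = 3 sets) fell past the threshold (limma adjusted p 0.0202), but the 3 Cy3 arrays alone gave -0.03 (limma adjusted p 0.849). It did not pass without set 2 (0.0928), without set 3 (0.0879) or with values of 0 kept (0.0700).

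Most tested H2 probes read larger with the treated RNA in Cy5, 30 of the 41, with medians of 0.81 on the Cy5 arrays and 0.87 on the Cy3 arrays. The share over all probes was not counted, so this is not shown to be particular to H2 probes or to those that rose. Of the 26 H2 probes that rose, 20 read higher with the treated RNA in Cy5, with medians of 1.33 on the Cy5 arrays and 1.13 on the Cy3 arrays. A dye effect passed for 0 of the 41 tested H2 probes (limma, adjusted p under 0.05), against 0.181% of all probes that passed. At an unadjusted p under 0.05 there were 15 of the 41 H2 probes (36.6%) and 3348 of all 12724 probes (26.3%). The 5 H2 probes with a dye adjusted p under 0.1 were those of H2-Q4 (14471), H2-Q1 (16633), H2-T22 (600 and 7477) and H2-Ke6. On the 3 Cy5 arrays alone limma called 25 H2 probes higher, and on the 3 Cy3 arrays alone 26.

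**Figure D3:**
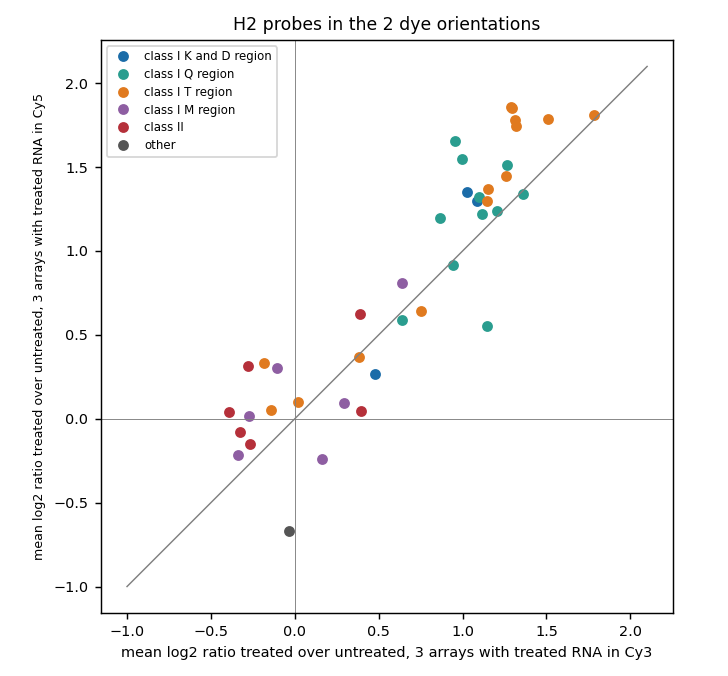
Mean log2 ratio of each tested H2 probe over the 3 arrays with treated RNA in Cy5 (vertical axis) and the 3 arrays with it in Cy3 (horizontal axis), coloured by group, with the line of equal values. Most class I points at the upper right lie above the line, and H2-Ke6 lies lowest, near -0.67 on the vertical axis.

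Likeness between H2 probes was set out pair by pair. The difference between 2 probes was measured as the mean absolute difference of their log2 ratios over the 6 arrays, for all 820 pairs of tested H2 probes. Its median was 0.32 for the 17 pairs from one gene and 0.70 for the 803 pairs from different genes. The closest pair was H2-T22 600 with 7477, at 0.03, followed by H2-T22 18002 with H2-T9, at 0.06. H2-K1 (9671) and H2-Q7 (427) differed by 0.08, less than the 0.22 between the H2-Q8 probes. Pairs from unlike groups could be close as well, such as H2-DMa with H2-Oa at 0.12 and H2-M1 with H2-Oa at 0.14, and the H2-T23 probes differed by 1.10. All pairs share arrays and some may share target sequence, so the likeness is a description only.

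Along chromosome 17 the response was not even. Of the 32 genes 29 could be placed in order (not H2-D4, H2-Q8 and H2-T9). The order ran from H2-K2 and H2-K1 through H2-Ke6 and the class II genes to H2-D1, then the Q genes, the T genes and the M genes. H2-K1, at one end, had a mean of 1.19, the class II block beside it stayed between -0.21 and 0.51, and the tested Q probes after H2-D1 had means of 0.61 and above. Between H2-K2 and H2-M2 lie genes without an H2 symbol, with 77 probes on the arrays. Of the 69 counted as tested, 16 rose (23.2%) and 10 fell, with a median of 0.05, against 14.8% and 12.2% of all probes. Of those 16 probes, 4 belong to class I loading genes (Tap1, Tap2 and Psmb8), and among the 64 outside that list 12 rose (18.8%). The 69 and the 64 wrongly include C2 (probe 1700), which was listed at 0 on 3 arrays, so these shares and the median are approximate.

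**Figure D4:**
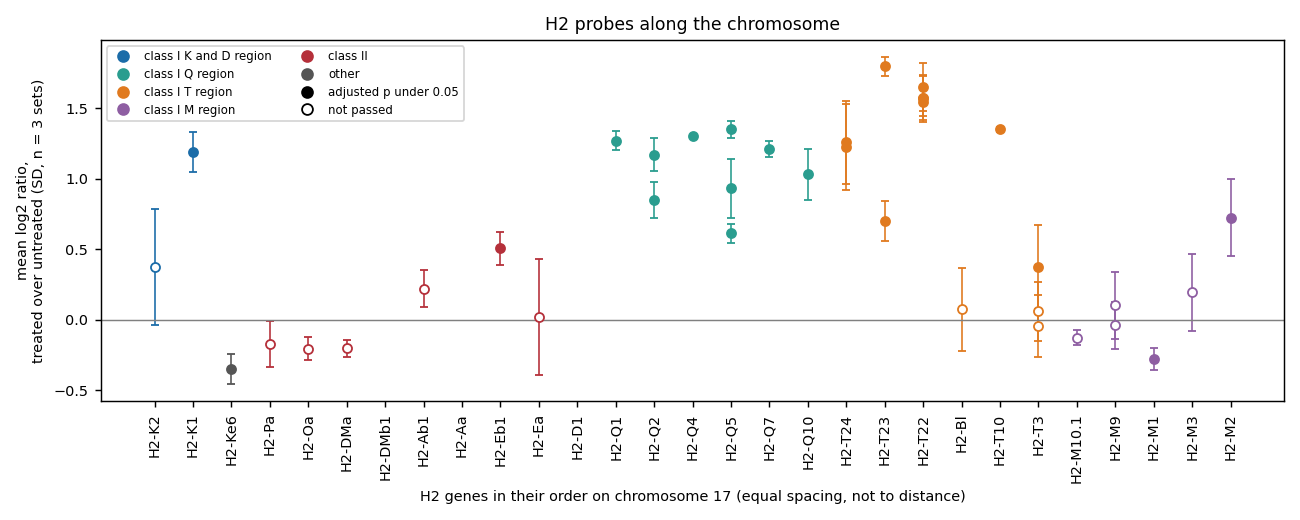
Mean log2 ratio (treated over untreated) of each tested H2 probe, with genes in their order on chromosome 17 at equal spacing and error bars of 1 SD over 3 set means. Filled points passed an adjusted p of 0.05. The Q genes and H2-T24 to H2-T10 lie above 0.6 except H2-Bl at 0.07, and the class II points lie between -0.21 and 0.51.

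Most genes that supply and load class I peptides rose too. Of 15 tested probes on this list 10 rose and 0 fell (0 also at an unadjusted p under 0.05, limma), with a median of 0.58. The shares over all probes were 14.8% higher and 12.2% lower. Tap1, which with Tap2 pumps peptides into the endoplasmic reticulum, read 1.96, 1.89 and 1.94 in Cy5 and 1.73, 1.67 and 1.84 in Cy3 (probe 5402). All 6 arrays were close, and the mean of 1.84 ± 0.05 (n = 3 sets) was a 3.58-fold rise (limma adjusted p 2.21e-06). A second Tap1 probe (3335) had a mean of 1.26. B2m, the light chain of every class I molecule, was listed at 0 on 1 array and read 1.33, 1.34 and 1.13 in Cy5 and 1.07 and 1.07 in Cy3 (probe 10647), with a mean of 1.15 over its 2 complete sets (limma adjusted p 6.81e-05). Another B2m probe was listed at 0 on all arrays. The lowest values were those of Calr, a chaperone of the endoplasmic reticulum, with means of -0.39 (probe 18278) and -0.04 (probe 7846), neither of which passed.

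For class II loading, 4 of 7 tested probes rose and 0 fell (0 also at an unadjusted p under 0.05, limma), with a median of 0.54. Among all probes 14.8% rose and 12.2% fell. Cd74, the invariant chain that guards the class II groove, read 0.78, 0.48 and 0.24 in Cy5 and 0.81, 0.53 and 0.40 in Cy3 (probe 11182). All 6 arrays were above 0, and the mean was 0.54 ± 0.24 (n = 3 sets, limma adjusted p 0.00716, or 0.106 with values of 0 kept). Another Cd74 probe, 13830, was listed at 0 on 2 arrays and not tested. It read 0.45 and -0.01 in Cy5 (sets 2 and 3) and 0.79 and 0.51 in Cy3 (sets 1 and 2). Ctsl and Ctss, proteases that cut the invariant chain, had the highest means, 0.80 (probe 1245) and 0.67 (probe 13600). The lowest were Ifi30 at -0.06 and Ctsb at -0.05, neither of which passed. Ifi30, a thiol reductase of the endocytic pathway, read -2.18, -2.14 and -2.36 in Cy5 and 2.35, 1.97 and 2.00 in Cy3 (probe 7384). Its sign followed the dye on all 6 arrays (dye effect, limma adjusted p 0.00159), and its mean near 0 averages these opposite readings.

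Transcription factors of MHC genes went in both directions, with 5 of 16 tested probes higher, 3 lower and a median of 0.02. Over all probes 14.8% were higher and 12.2% lower. Stat2 and Irf9, partners in the complex that acts downstream of type I interferon, had the highest means. Stat2 (probe 14359) read 1.40, 1.76 and 1.47 in Cy5 and 1.61, 1.62 and 1.54 in Cy3, with a mean of 1.57 ± 0.11 (n = 3 sets, limma adjusted p 6.73e-06). Irf9 (probe 17176) had a mean of 0.98 and Irf1, a factor that binds class I promoters, a mean of 0.70 (probe 15677), and both passed. Ciita, the class II transactivator, read 0.04, -0.44 and -0.15 in Cy5 and -0.09, -0.37 and 0.29 in Cy3 (probe 12588). Its arrays lay on both sides of 0, and the mean of -0.12 ± 0.25 (n = 3 sets) did not pass (limma adjusted p 0.470). The lowest means were those of Nfya at -0.51 (probe 11175) and Nfyc at -0.36 (probe 352), subunits of the factor that binds the Y box, and both fell past the threshold (limma adjusted p 0.00509 and 0.0419). With values of 0 kept neither passed (0.0710 and 0.199), and the number of lower probes on the list was 1 without set 1 and 1 without set 2. The remaining lower probe was Creb1 17930, with a mean of -0.305 (limma adjusted p 0.0315, or 0.0578 with values of 0 kept). Creb1 probe 7876 was above 0 on all 6 arrays, with a mean of 0.318 that did not pass (limma adjusted p 0.0727).

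MHC class I-like genes outside the H2 family mostly did not pass. Of 8 tested probes 1 rose and 0 fell (0 also at an unadjusted p under 0.05, limma), with a median of 0.02. Over all probes 14.8% rose and 12.2% fell. Fcgrt, the neonatal Fc receptor, rose with a mean of 0.34 (probe 6267, limma adjusted p 0.0416), but this call was lost without set 1 and with values of 0 kept (0.174). Mr1, which presents vitamin metabolites, had a mean of 0.13, Cd1d1, which presents lipids, -0.20, and Hfe, a regulator of iron uptake, -0.13, and none of these passed.

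**Figure D5:**
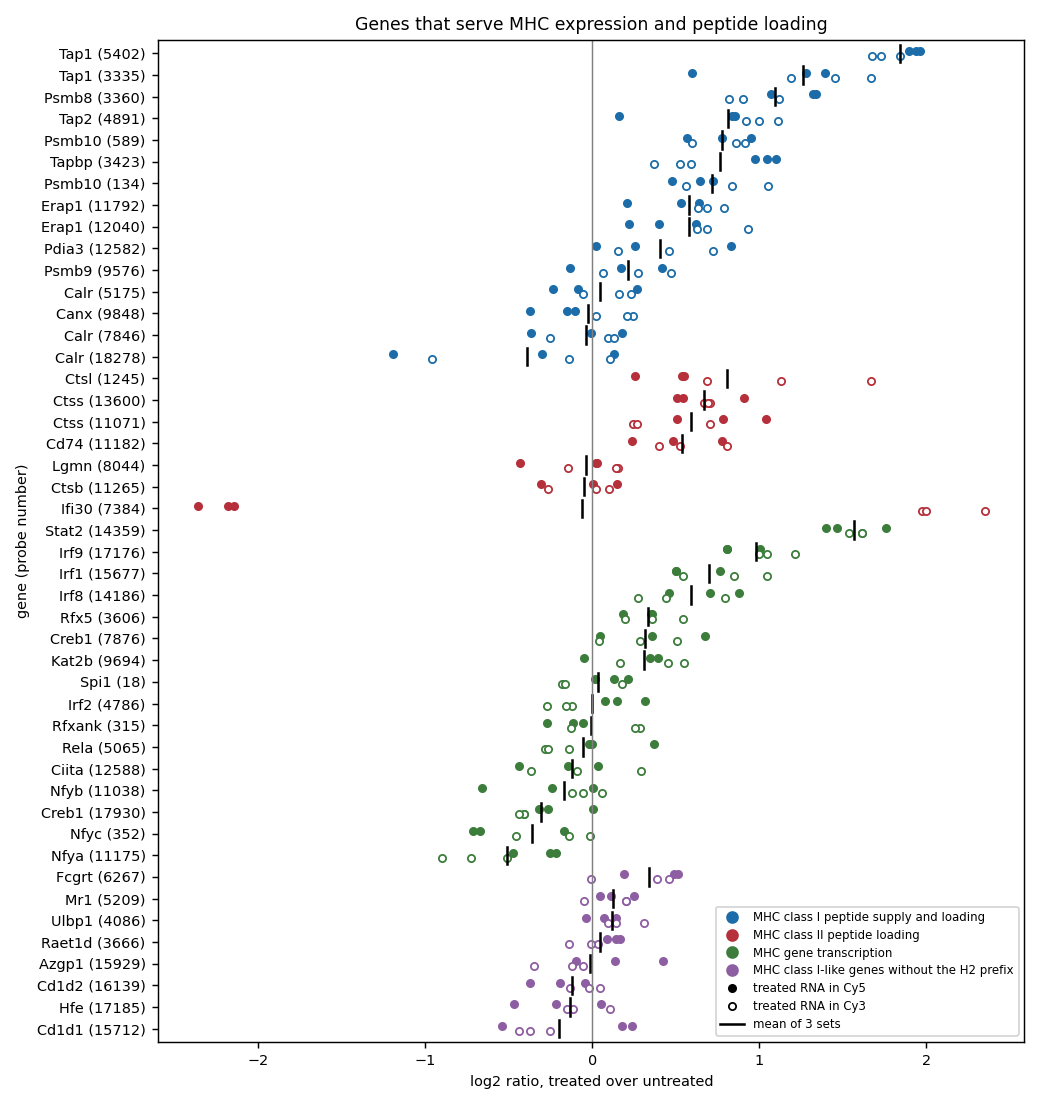
Log2 ratio of treated over untreated on each array for tested probes of 4 lists of MHC-related genes, with filled circles for treated RNA in Cy5, open circles for treated RNA in Cy3 and a bar for the mean of 3 sets. Tap1 (5402) lies highest in its list at 1.84 and Stat2 in its list at 1.57, and the points of Ifi30 fall apart by dye.

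Among macrophage markers 4 of 13 tested probes rose and 1 fell, with a median of 0.08, against 14.8% higher and 12.2% lower of all probes. Their extremes, named here after their values were seen, were Fcgr1, a high-affinity Fc receptor, with a mean of 1.96 (3.88-fold), Msr1, a scavenger receptor, with 1.66 (3.17-fold), and Csf1r, the receptor of a macrophage growth factor, with -0.53. All 3 passed (limma adjusted p 2.68e-06, 3.74e-06 and 0.00688), and the rises of Fcgr1 and Msr1 were of the size of the highest H2 rises. With values of 0 kept Csf1r did not pass (0.0977). Dendritic cell markers had 1 of 5 higher (Batf3, mean 0.53) and B cell markers 1 of 7 (Cd79a, mean 0.63), with medians of 0.11 and 0.06. T and NK cell markers had 0 of 8 higher (0 also at an unadjusted p under 0.05, limma) and 1 lower (Nkg7, mean -0.34). Fibroblast markers had 2 of 7 higher, Dcn and Lum, with means of 2.68 and 1.92. With values of 0 kept Batf3 (0.106), Nkg7 (0.0840) and Dcn (0.0789) did not pass (limma adjusted p). The part of these markers in the H2 result was not tested. Ratios do not show whether the markers are present at all, so the macrophage label could not be checked by level.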

How the data were processed

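Each of the 6 arrays compared treated with untreated RNA, and the authors deposited 1 log2 ratio of Cy5 over Cy3 per probe and array, with the direction taken from the dyes, per the labels, and the base, which no source used here gives, assumed to be 2. How the arrays were scanned, corrected for background and normalized is not given in the sources used here, and intensities were not used, so dim spots could not be told from bright ones. The number of arrays limits the precision. All 6 columns were mapped, with 0 left over.

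The ratio was turned on the 3 arrays with treated RNA in Cy3. Arrays of one orientation correlated at 0.67 to 0.77 and opposite ones at -0.66 to -0.41 before turning. Exact zeros, which 1011 probes had on all arrays, were treated as missing. The orientations of each set were averaged, and limma 3.58.1 in R 4.3.3 tested whether the 3 set means differ from 0 (lmFit, eBayes, two-sided, Benjamini-Hochberg over 12724 probes). The dye effect was tested on unturned ratios. The test was checked on simulated data. Pairing the orientations by set number is an assumption, and deviations from the orientation means correlated within sets 1, 2 and 3 at 0.53, 0.08 and 0.17.

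Genes come from the platform annotation. Of 16281 probes 13738 had 1 symbol, 52 several and 2491 none, and 2 probes whose several symbols include an H2 gene were left out. H2-D4 and H2-Q8 were placed with their group by name. Every H2 probe is named, and of each of the 4 MHC-related lists the 2 highest and the 2 lowest tested probes, plus B2m, Tap1, Cd74, Ciita and Irf1. The members and the gene lists were chosen with earlier results of these data known. Promoters are those of RefSeq, GRCm38.p6. The alternatives tried were zeros kept as values, probes with 2 complete sets, 6 arrays with and without the set as a block, leaving out a set, centring, equal spread, averaging per gene, a 2-fold threshold, and each orientation alone.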

Additional observations from a re-analysis of the deposited data

Results flagged for a closer look

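H2-M9 probe 7594 read in opposite directions in the 2 dye orientations. The 3 arrays with treated RNA in Cy5 were all below 0, at -0.12, -0.58 and -0.02 with a mean of -0.24, and the 3 arrays with it in Cy3 were all above 0, at 0.02, 0.19 and 0.29 with a mean of 0.16. Its dye effect, the mean of the unturned ratios, was -0.20 and did not pass the test (limma adjusted p 0.182). The mean of both orientations was -0.04, and no other tested H2 probe was split by the dye in this way on all 6 arrays.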

How the results depend on the processing

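Against 26 H2 probes higher as reported, 25 to 27 were called higher with 2 complete sets, with 6 arrays and no replicate block (25), with the set as a replicate block (25), or on one orientation alone, and 26 to 27 with a set left out. Averaged per gene, 16 of 29 genes rose. H2-T3 (3583) lost its call in both 6-array fits (adjusted p 0.0788 with no replicate block and 0.180 with the replicate block), and no other tested H2 probe changed its call in either. The 2 H2 probes that fell became 1 after median centring, with equal spread of arrays, on Cy5 arrays alone and on Cy3 arrays alone, 0 with values of 0 kept and 0 at 2-fold, and 0 to 1 with a set left out (1 to 2 at an unadjusted p under 0.05). Keeping values of 0 as measurements, 903 probes rose and 504 fell (1887 and 1556 as reported), 0 had a dye effect (23 as reported; 3922 at an unadjusted p under 0.05), and the lists had 5 (class I loading), 2 (class II loading), 3 (transcription) and 0 (class I-like) higher and 0 transcription probes lower. With a set left out, the probes that fell numbered 851 without set 2 and up to 1151 without another set. Class I loading had 6 of 10 genes higher when averaged per gene. Transcription had 1 lower on Cy5 arrays alone and 1 to 2 with a set left out. Class II loading had 1 lower on Cy5 arrays alone. Class I-like genes had 2 higher with 2 complete sets, 0 with equal spread or on Cy5 arrays alone, 0 to 1 with a set left out, and 1 lower on Cy3 arrays alone. For probes without a value of 0, keeping zeros changes only the spread drawn from all probes and the adjustment. The cause of the other shifts was not tested. Reversals were limited to probes that did not pass. With a set left out, means ran from -0.0786 to 0.218 for H2-Bl, -0.0577 to 0.146 for H2-T3 (211), -0.161 to 0.0618 for H2-T3 (11466), -0.125 to 0.0417 for H2-M9 (7594) and -0.120 to 0.254 for H2-Ea, which was -0.0788 without set 3. On Cy3 arrays alone H2-Bl was -0.186, H2-M9 -0.104 (1996) and 0.165 (7594), and H2-Ea -0.278. On Cy5 arrays alone H2-T3 (11466) was 0.0495, H2-M10.1 (9928) 0.0181 and H2-Pa 0.0378.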
